A study of Homo sapiens with 4 samples.

Results

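The small RNAs described here are the box H/ACA small nucleolar RNAs, whose gene symbols start with SNORA, and the small Cajal body RNAs, whose symbols start with SCARNA. A gene of either name was included if its counts summed to at least 40 over the 4 libraries of the series. Of 131 such genes in a table of 40205, 119 met this rule, 95 of them SNORA and 24 SCARNA genes. The level over all libraries therefore chose the members, and the levels below are a description. At the edge of the rule, SNORA11B, SNORA57 and SNORA59A were included with sums of 43, 92 and 137 counts, and SNORA70B, SNORA29 and SNORA70F were left out with 30, 10 and 7. Of the 12 genes left out, 5 had no count in any library.

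The cells were SKOV3, an established human ovarian cancer line grown in RPMI medium with serum. The 2 control libraries were from cells labelled control, and the 2 Rg3 libraries were from cells exposed to 80 µg/mL of the ginsenoside 20(S)-Rg3, a saponin of ginseng, for 24 h. The labels name no vehicle for the control cells. They speak of a pooled RNA sample per library and are silent on whether libraries of 1 group stem from different cultures, so the p-values below cover the spread between libraries only, and that spread may be technical. Total RNA was depleted of ribosomal RNA and not selected for polyadenylated RNA, and RNA was fragmented before reverse transcription.

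An H/ACA RNA folds into hairpins joined by a hinge with the H box, and carries the trinucleotide ACA close to its end. It sits in a particle with the pseudouridine synthase dyskerin (DKC1), NHP2, NOP10 and GAR1, and guides that enzyme to chosen uridines by base pairing. Most SNORA RNAs guide pseudouridylation of ribosomal RNA in the nucleolus, and a few, such as SNORA73A, act in the cleavage of ribosomal RNA precursors instead. SCARNA RNAs reside in Cajal bodies and guide modification of spliceosomal small nuclear RNAs. Some SCARNA RNAs carry box C/D parts, which guide ribose methylation, beside the H/ACA parts or in place of them. In human cells most of these RNAs are cut out of introns of other genes, called host genes.

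No sequence of a whole member was at hand, but RefSeq (GRCh38.p14) lists microRNA hairpins that lie partly or wholly within 7 members. Of these hairpins 5 covered the place of the ACA box, which in this class is followed by 3 more nucleotides (nt) of the RNA. All 5 held ACA exactly there. They are shown 5′ to 3′ with that ACA in capitals, because this box defines the class that the rule chose by name alone; the member and the hairpin's strand stand before each sequence, and hairpin bases past the member's end are included.
SNORA36A (MIR664B, plus strand): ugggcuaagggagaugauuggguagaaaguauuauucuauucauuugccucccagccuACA
SNORA36B (MIR664A, minus strand): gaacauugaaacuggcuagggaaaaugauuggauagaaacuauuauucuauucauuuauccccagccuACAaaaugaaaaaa
SNORA84 (MIR3651, minus strand): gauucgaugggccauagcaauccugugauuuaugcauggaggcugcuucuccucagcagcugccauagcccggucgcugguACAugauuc
SCARNA16 (MIR6516, plus strand): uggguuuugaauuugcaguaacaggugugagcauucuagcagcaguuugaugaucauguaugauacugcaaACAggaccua
SCARNA3 (MIR1843, minus strand): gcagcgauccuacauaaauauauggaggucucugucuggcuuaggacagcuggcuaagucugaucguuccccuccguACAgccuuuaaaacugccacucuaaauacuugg

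The other 2 hairpins cover the start of their member. They are shown because SNORA81 and SNORA34 are among the members with the smallest p-values below. Capitals mark the bases inside the member, which are bases 1 to 102 of the 177 nt of SNORA81 and bases 1 to 75 of the 137 nt of SNORA34.
SNORA81 (MIR1248, plus strand): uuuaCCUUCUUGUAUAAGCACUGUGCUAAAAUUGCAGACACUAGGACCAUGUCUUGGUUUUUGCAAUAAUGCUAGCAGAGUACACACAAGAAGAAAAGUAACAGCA
SNORA34 (MIR1291, minus strand): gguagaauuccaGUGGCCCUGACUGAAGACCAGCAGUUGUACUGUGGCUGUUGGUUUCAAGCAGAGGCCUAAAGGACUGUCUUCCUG

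Such overlaps bear on what a count means. The table has a row for MIR3651, which held 1236 and 1530 counts in the controls and 1628 and 1398 with Rg3. That came to 95.0 and 95.9 per 100 counts of SNORA84 in the controls, and 95.1 and 95.8 with Rg3. Nearly the same ratio stood in all libraries, and the 2 rows share most of their bases. Whether 1 read was counted in both rows cannot be told from the table. SNORA36A and SNORA36B are copies whose hairpins share a longest identical run of 17 nt, and reads may be divided between such copies. SNORA36A had 1035 and 1019 counts in the controls and 994 and 826 with Rg3, and SNORA36B had 73 in each control, then 72 and 64.

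Library depth ran from 24482846 to 30132517 counts. The epithelial keratins KRT7, KRT8 and KRT18 stood between 1556 and 2814 CPM (counts per 1000000 counts of the library after TMM scaling, which evens out library composition) in every library, and ERBB2, amplified in this line, between 45.2 and 53.5. EPCAM was at 0 counts throughout, KRT19 and WT1 were at 0 in at least 2 libraries, and MUC16 and PAX8 were under 2 CPM. Of 9 markers of immune, endothelial, stromal and liver cells, CD3E and ALB were at 0 in every library, and CD68 (10.5 to 21.3 CPM), CDH5 (16.1 to 19.5) and COL1A1 (1.62 to 4.67) were above 1 CPM throughout.

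The members took 2.10% and 2.11% of the counts of the controls, and 1.80% and 2.01% of the counts of the Rg3 libraries. Both Rg3 libraries lay below both controls. The mean was 2.10% ± 0.00815 (SD, n = 2) in controls and 1.91% ± 0.146 (SD, n = 2) with Rg3, a difference of −0.197 percentage points. An exact two-sided permutation test gave p = 0.333, which is the smallest value that 2 libraries against 2 can reach. In bulk RNA, fewer cells with an RNA and less of it per cell cannot be told apart. SNORA genes took 1.95% and 1.96% in controls and 1.68% and 1.84% with Rg3, with no overlap. SCARNA genes took 0.147% and 0.146% in controls and 0.128% and 0.165% with Rg3, so the Rg3 libraries stood on either side of the controls.

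**Figure D1:**
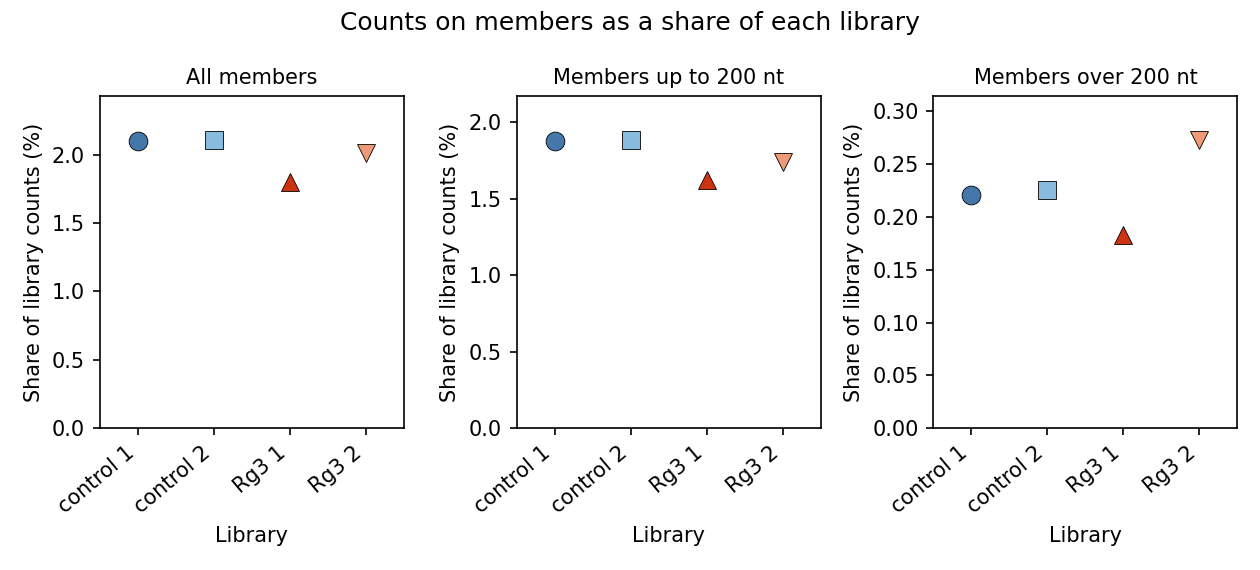
Share of each library's counts (percent, axis from 0) on all 119 members (left), on the 105 members of up to 200 nt (middle) and on the 14 members over 200 nt (right), 1 point per library. On all members both Rg3 libraries (1.80% and 2.01%) lie below both controls (2.10% and 2.11%), and on members over 200 nt Rg3 library 1 is the lowest and Rg3 library 2 the highest.

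A few members held most of these counts. The 12 members with the highest CPM took between 52.7% and 54.0% of all member counts in each library, and SNORA42 alone took 10.5% to 11.4%. SNORA42, a guide for small-subunit ribosomal RNA that RefSeq now lists as SNORA80E, stood at 2373 and 2292 CPM in the controls and at 1927 and 2158 with Rg3. Mean CPM ran from 0.410 (SNORA11B) to 2187 (SNORA42) over the members, with a median of 57.3. For a comparison between genes, mean CPM was divided by the RefSeq length. SNORA42 then came first at 1632 CPM per 100 nt, followed by SNORA4 (686), SNORA81 (685), SNORA67 (678), SNORA23 (556), SNORA64 (518), SNORA65 (502) and SNORA10 (500). SNORA73A, with rank 4 by CPM, had rank 9 per length at 466 CPM per 100 nt. The Cajal body RNAs SCARNA2 and SCARNA10, 420 and 330 nt long, were at 52.9 and 62.4 CPM per 100 nt. Fragments of RNAs this short may not be counted in proportion to their length, so this order is approximate.

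**Figure D2:**
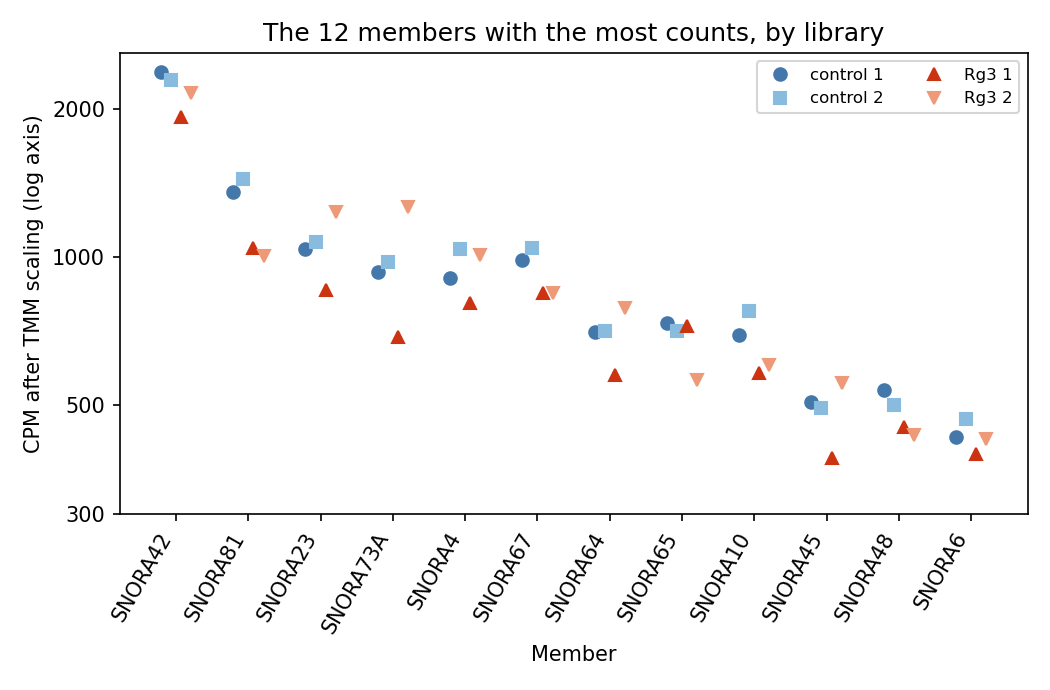
CPM after TMM scaling (log axis) of the 12 members with the highest CPM, 1 point per library, not divided by length. For SNORA42, SNORA81, SNORA67, SNORA10, SNORA48 and SNORA6 both Rg3 libraries lie below both controls, and for SNORA23, SNORA73A, SNORA64 and SNORA45 Rg3 library 1 is the lowest and Rg3 library 2 the highest.

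All 119 members passed the filter on low counts and were tested among 16323 genes. With Rg3, 0 members were called higher and 0 lower in edgeR's quasi-likelihood test at an adjusted p under 0.05, against 0.0306% of all genes called higher and 0% lower. At an unadjusted p under 0.05 there were 0 members higher and 11 lower (9.24%), against 1.83% and 2.9% of all genes. DESeq2 and limma voom also called 0 members in either direction, where DESeq2 called 0.287% of its genes higher and 0.132% lower, and voom the same shares as edgeR. The 11 were SNORA81, SNORA79, SNORA28, SCARNA4, SNORA26, SNORA71B, SNORA25, SNORA34, SNORA77, SNORA2A and SNORA33, from the smallest p up. Their edgeR adjusted p was 0.905 for SNORA81, 0.921 for SNORA79 and 0.999 for the others. Without the low-count filter edgeR called 0 members, against 0.351% of genes higher and 0.483% lower, and with the replicate number as a block 0 members, against 0.423% and 0.527%.

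The log2 fold changes were small and mostly below 0. They were below 0 for 94 members (79.0%) and above 0 for 25, while 47.5% of all genes tested were below 0 and 52.5% above. The median over members was −0.13, and over all genes tested 0.01. Of the SNORA members 82 of 95 were below 0, with a median of −0.14, and of the SCARNA members 12 of 24, with a median of −0.01. Both Rg3 libraries lay below both controls in 49 members (41.2%), against 17% of all genes, and above both controls in 2 members (1.68%), SCARNA9 and SNORA78, against 15.3%. The 49 were 43 SNORA genes and 6 SCARNA genes. With CPM scaled by library size alone 49 members lay below and 2 above, against 16.4% and 16.8% of all genes.

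**Figure D3:**
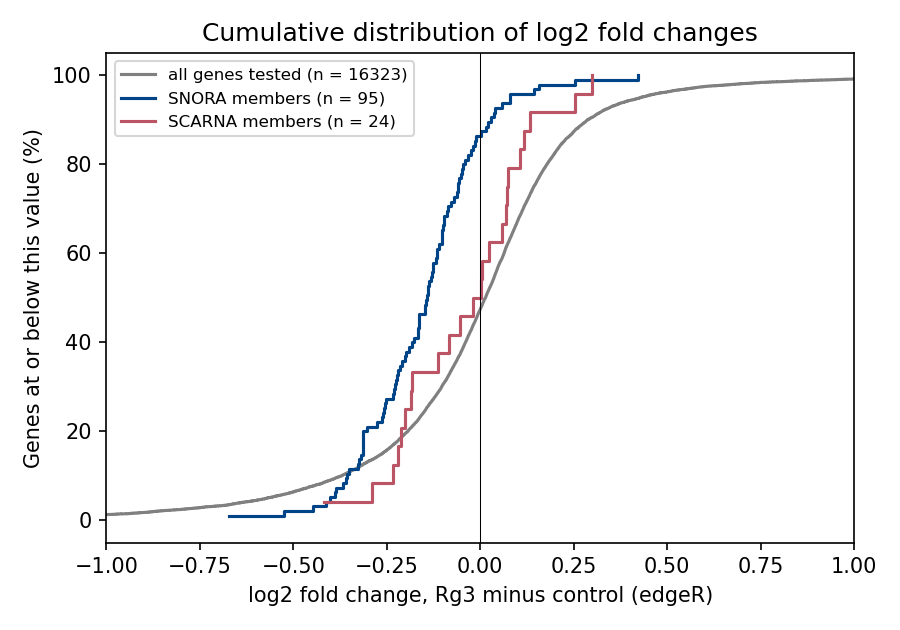
Cumulative share of genes (percent) against the log2 fold change of Rg3 minus control from edgeR, for 95 SNORA members, 24 SCARNA members and all 16323 genes tested; values beyond 1 in size are outside the axis. The SNORA curve lies to the left of that of all genes around 0, with 82 of 95 members below 0, and the SCARNA curve crosses 0 near its middle, with 12 of 24.

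The 2 Rg3 libraries differed from each other over these RNAs. Rg3 library 1 lay below the mean of the controls in 107 of 119 members (89.9%, against 50.9% of all genes), with a median log2 difference of −0.24. Rg3 library 2 lay below it in 70 (58.8%, against 50.2%), with a median of −0.07. The controls differed from each other by a median of 0.06. Without Rg3 library 1 edgeR called 4 members higher (3.36%, against 2.6% of all genes) and 6 lower (5.04%, against 2.77%). The 4 were SCARNA10, SCARNA22, SCARNA7 and SNORA73A, and the 6 were SCARNA4, SNORA26, SNORA33, SNORA71B, SNORA77 and SNORA81. Without Rg3 library 2 it called 0 higher (1.8% of all genes) and 2 lower (1.68%, against 0.879%), SNORA59B and SNORA73A. In these fits the remaining Rg3 library has no replicate and is assumed to vary like the controls.

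SNORA73A, the abundant RNA of ribosomal RNA processing, was called in opposite directions in these 2 fits. It stood at 932 and 979 CPM in the controls, and at 687 and 1263 with Rg3. Rg3 library 1 was the lowest and Rg3 library 2 the highest, so the group means of 955 ± 33.2 and 975 ± 408 (SD, n = 2) differed by less than the spread. Its log2 fold change was 0.03 (SE 0.26), −0.48 without Rg3 library 2 (edgeR adjusted p = 0.035) and 0.41 without Rg3 library 1 (adjusted p = 0.039).

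Members with long RNAs stood apart in Rg3 library 2, and the split at 200 nt was set after this had been seen, so no test is given. The 14 members over 200 nt, 10 of them SCARNA genes, had a median difference from the controls of 0.28 in Rg3 library 2 and −0.23 in Rg3 library 1. The 105 shorter members had −0.10 and −0.25. Among the long ones, 10 of 14 were above the control mean in Rg3 library 2 (49.8% of all genes were). The 4 exceptions were SNORA74B, SCARNA2, SCARNA9L and SCARNA17. Counts on long members per 100 counts on shorter ones were 11.7 and 11.9 in the controls and 11.3 and 15.7 with Rg3. Rg3 library 2 stood apart from the other 3 libraries, which were close together. This ratio weighs members by their counts. The most abundant long member was SNORA73A, at 1263 CPM in Rg3 library 2, followed there by SCARNA10 at 290.5.

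**Figure D4:**
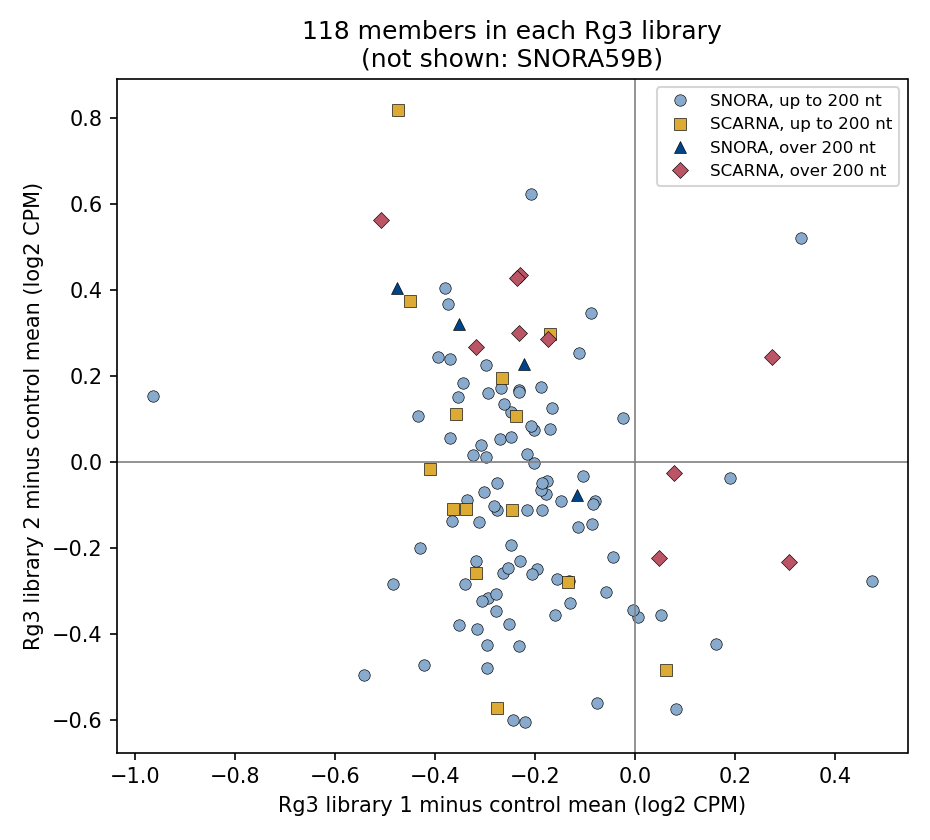
Difference of log2 CPM from the control mean in Rg3 library 1 (horizontal) and Rg3 library 2 (vertical) for 118 members, 1 point each, by symbol and RefSeq length; SNORA59B is outside the axes. Most points lie left of 0, and 10 of the 14 members over 200 nt lie above 0 on the vertical axis, against 39 of 105 shorter members.

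Of the 8 SCARNA genes with the highest CPM, all but SCARNA2 were lower in Rg3 library 1 than in Rg3 library 2. SCARNA10, a composite guide for U5 small nuclear RNA, stood at 178 and 217 CPM in the controls and at 138.2 and 290.5 with Rg3. The Rg3 values lay outside the controls on either side, and the log2 fold change was 0.12 (SE 0.31). SCARNA7, a guide for U1 small nuclear RNA, stood at 76.4 and 72.7 CPM in the controls and at 63.3 and 100.4 with Rg3, again on either side. SCARNA5 and SCARNA6, both within ATG16L1, were at log2 fold changes of 0.11 (SE 0.27) and 0.07 (SE 0.17), respectively. SCARNA6 was at 108 and 104 CPM, then 93.9 and 129. SCARNA5 was at 65.3 and 101.4 CPM, then 69.4 and 110.1, so its controls differed nearly as widely as its Rg3 libraries. SCARNA12, SCARNA13 and SCARNA16 had log2 fold changes of 0.00, 0.06 and 0.07, each with Rg3 library 1 below Rg3 library 2.

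SCARNA2, a guide for U2 small nuclear RNA, was among the 3 members with no host gene. It stood at 237 and 204 CPM in the controls and at 232 and 216 with Rg3, within the range of the controls. Its log2 fold change was 0.02 (SE 0.14). SCARNA9, another guide for U2, stood at 4.14 and 5.22 CPM and then 5.64 and 5.52, a log2 fold change of 0.25 (SE 0.22). SCARNA22, known as ACA11, stood at 5.15 and 6.24 CPM in the controls and at 4.05 and 10.1 with Rg3 (log2 fold change 0.30, SE 0.40). It was called higher without Rg3 library 1 (adjusted p = 0.029 with edgeR) and had a log2 fold change of −0.49 without Rg3 library 2.

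The member with the smallest p was SNORA81, a guide for large-subunit ribosomal RNA and one of the RNAs within EIF4A2, a translation initiation factor gene. It stood at 1358 and 1440 CPM in the controls and at 1044 and 1007 with Rg3. Both Rg3 libraries were lower by more than the replicates differed, and the log2 fold change was −0.45 (SE 0.13, edgeR adjusted p = 0.905). Without Rg3 library 1 it was called lower at −0.47 (adjusted p = 0.026), and without Rg3 library 2 it was at −0.42 (adjusted p = 0.055). The other RNAs of this host were less far from the controls. SNORA63 stood at 368 and 396 CPM, then 322 and 334, and SNORA4 at 908 and 1040, then 806 and 1007. Their log2 fold changes were −0.22 (SE 0.13) and −0.10 (SE 0.16). EIF4A2 itself stood at 158 in both controls, and at 110 and 170 with Rg3 (log2 fold change −0.18, SE 0.21). The host was thus low in Rg3 library 1 only, while SNORA81 was low in both.

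SNORA79, within the span of GTF2A1, stood at 15.4 and 16.6 CPM in the controls and at 10.96 and 11.33 with Rg3. Its log2 fold change was −0.52 (SE 0.16, edgeR adjusted p = 0.921). The replicates lay close together and the groups apart. GTF2A1, which encodes a subunit of a general transcription factor, stood at 38.6 and 35.2 CPM, then 41.5 and 44.5 (log2 fold change 0.22, SE 0.14). SNORA28, a guide for small-subunit ribosomal RNA within EIF5, stood at 68.0 and 74.4 CPM in the controls and at 55.8 and 54.6 with Rg3 (log2 fold change −0.37, SE 0.13). EIF5, another initiation factor gene, lay on the other side, at 174 and 161 CPM and then 226 and 222 (log2 fold change 0.42, SE 0.13). Neither passed in the test over all genes, and the edgeR adjusted p of EIF5 was 0.921. SNORA77 and its host ATP2B4, a calcium pump gene, lay on the same side. SNORA77 stood at 61.8 and 55.0 CPM and then 50.05 and 38.3, and ATP2B4 at 115 and 94.2 and then 84.9 and 71.5, with log2 fold changes of −0.40 (SE 0.17) and −0.42 (SE 0.16).

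Both SNORA42 and SCARNA4 lie within the gene listed as KIAA0907, now named KHDC4. SCARNA4 stood at 60.8 and 58.4 CPM in the controls and at 49.2 and 39.99 with Rg3 (log2 fold change −0.42, SE 0.15). For SNORA42 the log2 fold change was −0.19 (SE 0.14), and for the host −0.17 (SE 0.13). In all 3 both Rg3 libraries lay below both controls. Within KANSL2 the related SNORA2A and SNORA34 each had a log2 fold change of −0.31 (SE 0.13). SNORA34 stood at 207 and 194 CPM, then 165 and 158, and SNORA2A at 200 and 205, then 170 and 156. SNORA2B of the same host overlapped between groups, at 29.0 and 32.9 CPM, then 34.6 and 23.0. KANSL2 stood at 93.7 and 95.7 CPM and then 89.9 and 101.7.

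Of the 6 members in TAF1D, SNORA25 had the lowest log2 fold change, −0.39 (SE 0.16), at 17.8 and 18.7 CPM in the controls and 14.9 and 13.1 with Rg3. The other 5 overlapped between the groups. SNORA26, in the long non-coding RNA gene DANCR, stood at 40.4 and 40.5 CPM, then 32.92 and 30.04 (log2 fold change −0.36, SE 0.14), while DANCR was at 35.8 and 39.1, then 39.0 and 46.5. SNORA33, which the rule for named genes did not take and which was chosen after its values were seen, had a log2 fold change of −0.33 (SE 0.14).

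Among the other abundant members, SNORA67 and SNORA48 of EIF4A1, a further initiation factor gene, were at log2 fold changes of −0.26 (SE 0.13) and −0.22 (SE 0.13). SNORA67 stood at 984 and 1043 CPM in the controls and at 844 and 846 with Rg3. The 2 members of RPS2, a ribosomal protein gene, differed in pattern. SNORA10 stood at 696 and 778 CPM and then 582 and 604, with no overlap. SNORA64 stood at 705 and 707 and then 576 and 789, on either side of the controls. Their log2 fold changes were −0.31 (SE 0.14) and −0.05 (SE 0.18), and RPS2 had −0.04 (SE 0.14). SNORA23 of IPO7, a guide for large-subunit ribosomal RNA, stood at 1036 and 1073 CPM in the controls and at 859 and 1234 with Rg3. SNORA45 of RPL27A stood at 507 and 492 CPM, then 391 and 555. Both had the order of SNORA64, with Rg3 library 1 lowest and Rg3 library 2 highest. SNORA65 of RPL12, another guide for large-subunit ribosomal RNA, stood at 735 and 708 CPM, then 725 and 562, and was low in Rg3 library 2 only. SNORA6 of RPSA had a log2 fold change of −0.13 (SE 0.14).

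Copies of near-identical sequence can share reads. Families were formed from the symbols of the count table, and the 4 with the highest summed CPM are given as sums. Current RefSeq symbols would form others. They would join SNORA42 (SNORA80E) with SNORA80 (SNORA80A) and SNORA80B, and SNORA45 (SNORA3B) with SNORA3 (SNORA3A). SNORA39 (SNORA71E) would join the SNORA71 copies. The order of families therefore holds for the older symbols only. The SNORA71 copies, A to D, guides for small-subunit ribosomal RNA, summed to 648 and 657 CPM in the controls and to 566 and 486 with Rg3. All 4 copies had both Rg3 libraries below both controls, as did 41.2% of all members and 17% of all genes tested. Copies that share reads are not separate observations. Their log2 fold changes ran from −0.41 (SE 0.16, SNORA71B) to −0.20 (SE 0.13, SNORA71D). The SNORA5 copies summed to 490 and 447 CPM, then 427 and 388, with SNORA5C and SNORA5A below the controls and SNORA5B under 2 CPM. The SNORA7 copies summed to 563 and 546 CPM, then 417 and 634, and the SNORA74 copies to 514 and 467, then 412 and 521. In these last 2 families the Rg3 libraries lay on either side of the controls.

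On the higher side, SNORA78, within the long non-coding RNA gene SNHG9, had the largest log2 fold change, 0.42 (SE 0.21). It stood at 5.48 and 6.99 CPM in the controls and at 7.82 and 8.92 with Rg3, and the groups did not overlap. SNHG9 was under 1 CPM in every library. SNORA76 stood at 150 and 163 CPM, then 147 and 199, and SNORA15 at 4.87 and 5.03, then 6.91 and 4.07, and both overlapped between groups. SNORA59A and SNORA59B were low. SNORA59A stood at 1.01 and 1.36 CPM, then 1.01 and 1.87. SNORA59B had the lowest log2 fold change of all members, −0.67 (SE 0.74), at 4.54 and 3.02 CPM in the controls and at 0.519 and 4.36 with Rg3. It was low in Rg3 library 1 only.

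Host genes as a group had another distribution than the members, and that difference itself was not tested. Of the 119 members, 116 lie within a protein-coding or long non-coding gene of RefSeq, and 109 within one that the count table holds, 84 genes in all. Of these 84 hosts 0 were called in either direction by edgeR, DESeq2 or voom. Their median log2 fold change was 0.06, and 30 of the 84 were below 0, against 47.5% of all genes tested. At an unadjusted p under 0.05, 2 hosts were higher and 2 lower (2.38% each, against 1.83% and 2.9% of all genes). Both Rg3 libraries lay below both controls in 10 hosts (11.9%) and above in 14 (16.7%), near the shares of all genes (17% and 15.3%). Member counts per 100 host counts were 177 and 174 in the controls and 152 and 156 with Rg3. This ratio was lower in both Rg3 libraries, and an exact two-sided permutation test gave p = 0.333, the smallest possible. Host counts may include some reads of the small RNAs, but the 84 hosts together took fewer counts than the members. The hosts took 1.19% and 1.21% of the counts of the controls, and 1.18% and 1.28% with Rg3. Without Rg3 library 1 edgeR called 8 hosts higher (9.52%, against 2.6% of all genes) and 3 lower (3.57%, against 2.77%), and without Rg3 library 2 it called 3 higher (3.57%, against 1.8%) and 2 lower (2.38%, against 0.879%).

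**Figure D5:**
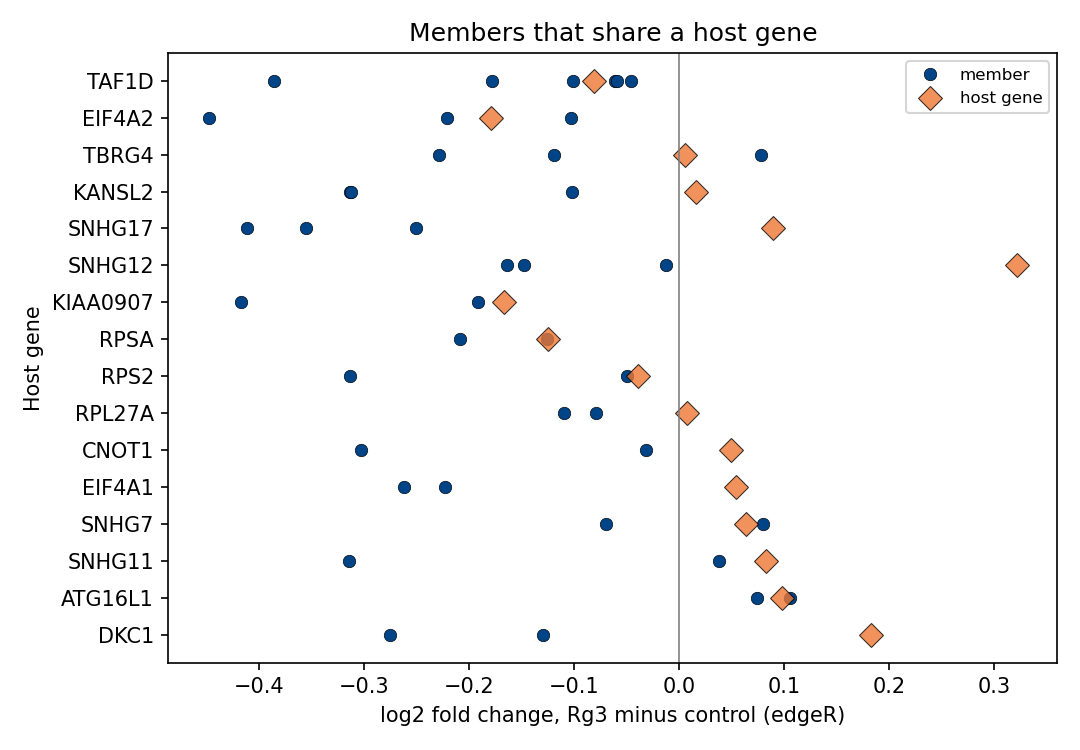
Log2 fold change of Rg3 minus control from edgeR for the 16 host genes with at least 2 members (diamonds) and for their members (circles), 1 row per host. In most rows the members lie to the left of their host, as for SNHG17, whose members run from −0.41 to −0.25 with the host at 0.09, and for EIF4A1, with members at −0.26 and −0.22 and the host at 0.05.

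Among the proteins and enzymes that work with these RNAs, edgeR, DESeq2 and voom called 0 genes. All 9 genes of the list for the core and assembly of the H/ACA particle were tested, with a median log2 fold change of 0.03. DKC1, the pseudouridine synthase and itself host of SNORA36A and SNORA56, stood at 121.6 and 121.7 CPM in the controls and at 131 and 145 with Rg3 (log2 fold change 0.18, SE 0.13). Both Rg3 libraries lay above both controls, while SNORA36A was below (−0.28). The log2 fold change was 0.03 (SE 0.13) for NHP2, −0.10 (SE 0.19) for NOP10 and 0.39 (SE 0.27) for GAR1, the last under 4 CPM in every library. The assembly factors NAF1 and SHQ1 had −0.08 (SE 0.21) and −0.02 (SE 0.19). The Cajal body list had 12 members tested, 9 above 0 (against 52.5% of all genes tested), and a median of 0.14. COIL, the coilin gene, had 0.16 (SE 0.16), and WRAP53, whose protein brings SCARNA RNAs and telomerase to Cajal bodies, had −0.07 (SE 0.15). The lists for the box C/D particle (9 genes, median 0.12), for trimming and decay (11 genes, median 0.13) and for stand-alone pseudouridine synthases (11 genes, median 0.02) held no called gene either, and at an unadjusted p under 0.05 edgeR had 0 genes of these 5 lists.

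TERC, the telomerase RNA, also ends in an H/ACA domain but carries another name and was not a member. It stood at 74.5 and 86.9 CPM in the controls and at 72.4 and 123 with Rg3 (log2 fold change 0.27, SE 0.24, and 0.61 without Rg3 library 1, where edgeR called it higher). Rg3 library 1 was the lowest and Rg3 library 2 the highest, the order also seen for SNORA73A and SCARNA10. Its telomerase partner TERT was under 1 CPM in every library. The telomerase list of 5 genes had a median of 0.06.

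The box C/D small nucleolar RNAs, the sister class that guides ribose methylation, are the closest comparison. Taken with the same sum of counts, 179 SNORD genes had a median log2 fold change of −0.34. Of them 160 were below 0, against 47.5% of all genes tested. EdgeR, DESeq2 and voom called 0 of them, and at an unadjusted p under 0.05 edgeR had 0 higher and 45 lower (25.1%), against 1.83% and 2.9% of all genes. Both Rg3 libraries lay below both controls in 119 of them (66.5%, against 17% of all genes) and above both in 6 (3.35%, against 15.3%). Their median difference from the controls was −0.25 in Rg3 library 1 and −0.42 in Rg3 library 2, where the H/ACA and Cajal body RNAs had −0.24 and −0.07. The 2 classes were thus close in Rg3 library 1 and apart in Rg3 library 2. RefSeq lengths had a median of 82 nt for the SNORD genes, 134 nt for SNORA and 155 nt for SCARNA members. Member counts per 100 SNORD counts without SNORD3A were 94.8 and 96.5 in the controls and 94.1 and 93.3 with Rg3 (exact two-sided permutation p = 0.333, the smallest possible). With SNORD3A, the most abundant of them, the ratio was 14.9 and 15.7, then 14.25 and 13.98. Both ratios weigh genes by their counts, while a median weighs each gene alike. SNORD genes took a mean of 13.7% of the control counts with SNORD3A and 2.20% without it. The ratio with SNORD3A therefore follows mainly that gene. Without SNORD3A the ratio was slightly lower with Rg3, with means of 95.6 and 93.7. Its value in Rg3 library 1 lay closer to control library 1 than the controls lay to each other. The ratios therefore do not show that members fell more than SNORD genes. By the median log2 fold change SNORD genes were lower, at −0.34 against −0.13 for members. The part of RNA length in the difference between the Rg3 libraries was not tested.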

How the data were processed

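The deposited file gives unnormalised whole-number counts for each gene symbol in 4 libraries. The genome build was GRCh37 per the submitters' processing notes; the aligner, counter, annotation and use of strand are not given in the sources used here, so a member's counts may include reads of the intron or antisense gene around it. EdgeR 4.0.16 under R 4.3.3 was used as follows: filterByExpr (minimum count 10, minimum total 15), TMM scaling and the quasi-likelihood test of treatment with 2 residual degrees of freedom, adjusted by Benjamini-Hochberg over all 16323 genes. DESeq2 1.42.0 and limma 3.58.1 (voom) were alternatives, and the edgeR steps were tested on simulated data. There they called 11.6% of genes with a simulated 1.5-fold change, 65.4% at 2-fold and 98.8% at 4-fold. A count of 0 called genes therefore does not show that small changes were absent. Standard errors were derived from the F statistic. For differences of single libraries 0.1 CPM was added before taking log2. Depth was 24482846 to 30132517 counts.

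Lengths and hosts came from RefSeq (GRCh38.p14), matched by symbol for 109 members and by a unique older symbol for 10; a host was the smallest protein-coding or long non-coding gene spanning the member. The strand of members was not in that table, so hosts were not checked for strand. The named members were the 12 with the highest CPM, the 6 highest and 6 lowest log2 fold changes at 1 CPM or more, up to 10 with the smallest p under 0.05, the 8 SCARNA genes with the highest CPM, 4 families of copies and 3 on each side of the inclusion rule; fixed protein genes and hosts of named members were added, and some hosts are given by counts only. Other members named as examples were chosen after their values were seen. The members and lists were chosen with earlier results of these data known.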

Additional observations from a re-analysis of the deposited data

How the results depend on the processing

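Over all genes edgeR called 5, against 214 without the filter on low counts, 57 with DESeq2 and 155 with the replicate block. Same-numbered libraries deviated together only weakly (r = 0.149 over 16323 genes, 2 pairs), which does not establish a pairing, and the block changed no call of a member, host or listed gene. Other scalings, DESeq2, voom, no filter and a sum of at least 400 left the member calls at 0.

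Leaving out 1 library in turn gave 0 to 10 member calls, 0 to 11 host calls, 0 to 2 calls in the lists and 49 to 909 over all genes. The median log2 fold change of members ran from −0.25 to −0.071 in these fits, that of SCARNA members from −0.26 to 0.11, and the difference in share from −0.300 to −0.094 percentage points. The count of members with Rg3 below the controls was 47 to 49 under other scalings (16.4% to 16.6% of all genes). It was 60 to 99 without 1 library, where the share of all genes was larger too (27.4% to 40.2%). These alternatives were chosen after seeing the data. Without Rg3 library 1, 60 members lay below and 38 above (40.2% and 39.7% of all genes), less one-sided than the 49 and 2 with all libraries. Without Rg3 library 2, 99 lay below and 6 above (39.3% and 37.5%). The count above was 2 under other scalings (15.8% to 16.8% of all genes). Without control library 1, 64 lay below and 5 above (27.4% and 25.8% of all genes). Without control library 2, 62 lay below and 6 above (27.7% and 27.0%). The median of members over 200 nt in Rg3 library 2 was 0.23 with the split at 150 nt.

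The log2 fold changes of 60 genes in the text, not of every gene named, were followed through the alternatives. Of these 60, 30 kept their sign throughout, and 28 changed it only without a library. SNORA73A and SCARNA12 also did so with voom (−0.034 and −0.029) and with the replicate block (−0.036 and −0.025). In the fits that lacked 1 library the log2 fold change spanned −0.30 to 0.23 for SNORA23, −0.48 to 0.41 for SNORA73A, −0.27 to 0.053 for SNORA4, −0.29 to 0.16 for SNORA64, −0.36 to 0.0080 for SNORA65, −0.35 to 0.16 for SNORA45, −2.85 to 0.21 for SNORA59B, −0.24 to 0.65 for SNORA59A, −0.28 to 0.48 for SNORA15, −0.088 to 0.35 for SNORA76 and −0.43 to 0.16 for SNORA2B. For SCARNA genes they ran from −0.49 to 0.83 (SCARNA22), −0.081 to 0.15 (SCARNA2), −0.51 to 0.56 (SCARNA10), −0.18 to 0.29 (SCARNA16), −0.17 to 0.29 (SCARNA6), −0.32 to 0.27 (SCARNA12), −0.26 to 0.46 (SCARNA5), −0.23 to 0.43 (SCARNA7) and −0.23 to 0.30 (SCARNA13). For other genes they ran from −0.075 to 0.18 (EIF4A1), −0.53 to 0.11 (EIF4A2), −0.075 to 0.11 (KANSL2), −0.14 to 0.061 (RPS2), −0.20 to 0.32 (SNHG17), −0.16 to 0.61 (TERC), −0.28 to 0.093 (NOP10), −0.16 to 0.0078 (NAF1), −0.22 to 0.17 (SHQ1) and −0.17 to 0.048 (WRAP53). The cause was not tested. Members under 10 CPM, such as SNORA59B and SCARNA9, are the least precisely counted.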
